A study of Homo sapiens with 3 samples.

Results

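The 46 genes described here act in S phase and DNA replication, and were measured in MM1S, a long-established cell line from a human multiple myeloma, before and after exposure to FK866. This compound blocks NAMPT, the enzyme that limits the rate at which cells recycle nicotinamide into NAD. The 46 genes are a list of replication factors, S phase regulators and enzymes of deoxynucleotide supply. Their probe sets were those whose platform annotation gave exactly 1 gene symbol, kept where the mean signal over the 3 arrays was 20 or more. This kept 81 of their 86 probe sets, so that 46 of 46 genes were measured, among 11330 genes measured in the series by the same rule. The lowest mean signal among the kept probe sets was 24.2 and the highest among the 5 left out was 15.7. Those 5 are further probe sets of CCNE1, CHAF1A, MCM4, RFC3 and TYMS.

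The series has 3 groups of MM1S cells, all grown in the same serum-containing medium: untreated cells labelled 0 h, and cells kept in 10 nM FK866 for 6 h or, in the last group, for 24 h. Each group gave 1 array, so no difference has a replicate check and no test was run. With 0 untreated arrays at 6 h or 24 h, FK866 and time in culture cannot be told apart. In RNA from a whole culture, fewer cells in S phase and less RNA per cell cannot be told apart either.

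Replication begins when the origin recognition complex, CDC6 and CDT1 load the MCM2-7 helicase onto DNA in G1. CDC45 and the GINS complex then switch the helicase on, and polymerases alpha, delta and epsilon copy the strands with the help of the sliding clamp PCNA. Most of these genes are controlled by E2F transcription factors, which are held back by the retinoblastoma protein until cyclin-dependent kinases, among them CDK2 with cyclin E, release them. In myeloma, high levels of such genes mark proliferating tumour cells.

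Signals are deposited intensities on a linear scale in arbitrary units. For a gene with more than 1 kept probe set, the value is that of the probe set with the highest mean log2 signal, after values below 16 were raised to 16. Differences are log2 differences between 2 arrays. Over all genes the median difference to untreated cells was -0.10 at 6 h and -0.13 at 24 h on the log2 scale, so small negative differences are to be read against these shifts. NAMPT itself had signals of 5473, 1248 and 1423 at 0 h, 6 h and 24 h, lower 4.38-fold at 6 h and 3.85-fold at 24 h. The 9 plasma cell markers (SDC1, CD38, TNFRSF17, IRF4, XBP1, PRDM1, SLAMF7, MZB1 and JCHAIN) had signals from 423 to 12686, and their sum was 44417, 41443 and 42224 at 0 h, 6 h and 24 h. Of 12 markers of other cell types, 11 had a probe set and 2 were kept, HBB at 289 to 340.0 and COL1A1. Summed over the 11, these markers gave 451, 482 and 429 at 0 h, 6 h and 24 h. The log2 difference between the 3' and 5' control probe sets of GAPDH, a sign of RNA quality, was 0.24, 0.20 and 0.32 at 0 h, 6 h and 24 h.

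Most S phase and replication genes stayed near their untreated level after FK866. Of the 4 members at least 1.5-fold lower at either time, 3 belonged to the G1/S regulators (the E2F and cyclin E genes). At 6 h, 3 of 46 members were at least 1.5-fold lower, E2F1, CCNE2 and E2F8, and 0 were at least 1.5-fold higher. This is 6.52% of the members, against 10.4% of all 11330 genes lower and 5.33% higher by that size. At 24 h, 4 of 46 were at least 1.5-fold lower, the same 3 genes and ORC6, and again 0 were higher. This is 8.7% of the members, against 13.1% of all genes lower and 4.49% higher. With the arrays centred on their medians, 2 members (CCNE2 and E2F1) remained at least 1.5-fold lower at 6 h and 1 (ORC6) at 24 h, where CCNE2 was at -0.51, E2F1 at -0.44 and E2F8 at -0.54. With the mean over probe sets CCNE2 was past 1.5-fold at neither time (-0.51 and -0.41). As deposited, these shares lay below those of all genes, but they rest on 3 and 4 genes. Without the dim genes, as given below, they did not lie below, so no difference from all genes is read from them. The share of all genes after centring is not given here. Both comparisons use the same untreated array, so a low or high untreated value enters each of them.

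At 2-fold, only CCNE2 and E2F1 were lower at 6 h (4.35% of the members, against 3.13% of all genes lower and 1.42% higher), and no member was past 2-fold at 24 h, against 3.98% of all genes lower and 1.07% higher. Dim genes can be left out by asking for a log2 signal averaging 8 or more, which 41 of the 46 members and 5530 genes in all had. Among these, CCNE2 and E2F8 were at least 1.5-fold lower at 6 h (4.88% of 41 members, against 4.56% of genes lower and 2.15% higher). At 24 h CCNE2, E2F8 and ORC6 were (7.32%, against 6.85% of genes lower and 1.66% higher). At this level too the members' share lay near the background.

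As deposited, the median of the list lay slightly below that of all genes. Without probe sets ending in _s_at or _x_at it did not at 6 h, with -0.11 for both. The median log2 difference of the 46 members was -0.16 at 6 h and -0.19 at 24 h, beside -0.10 and -0.13 over all genes. Below the median gene lay 29 of 46 members at 6 h and 26 of 46 at 24 h. The quartiles of the members were -0.30 and -0.02 at 6 h, beside -0.32 and 0.12 over all genes, and -0.40 and -0.02 at 24 h, beside -0.37 and 0.10. CCNE2 was the lowest member at 6 h, at -1.04, and PRIM2 the highest, at 0.50. ORC6 was the lowest at 24 h, at -0.88, and MCM5 the highest, at 0.34.

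**Figure D1:**
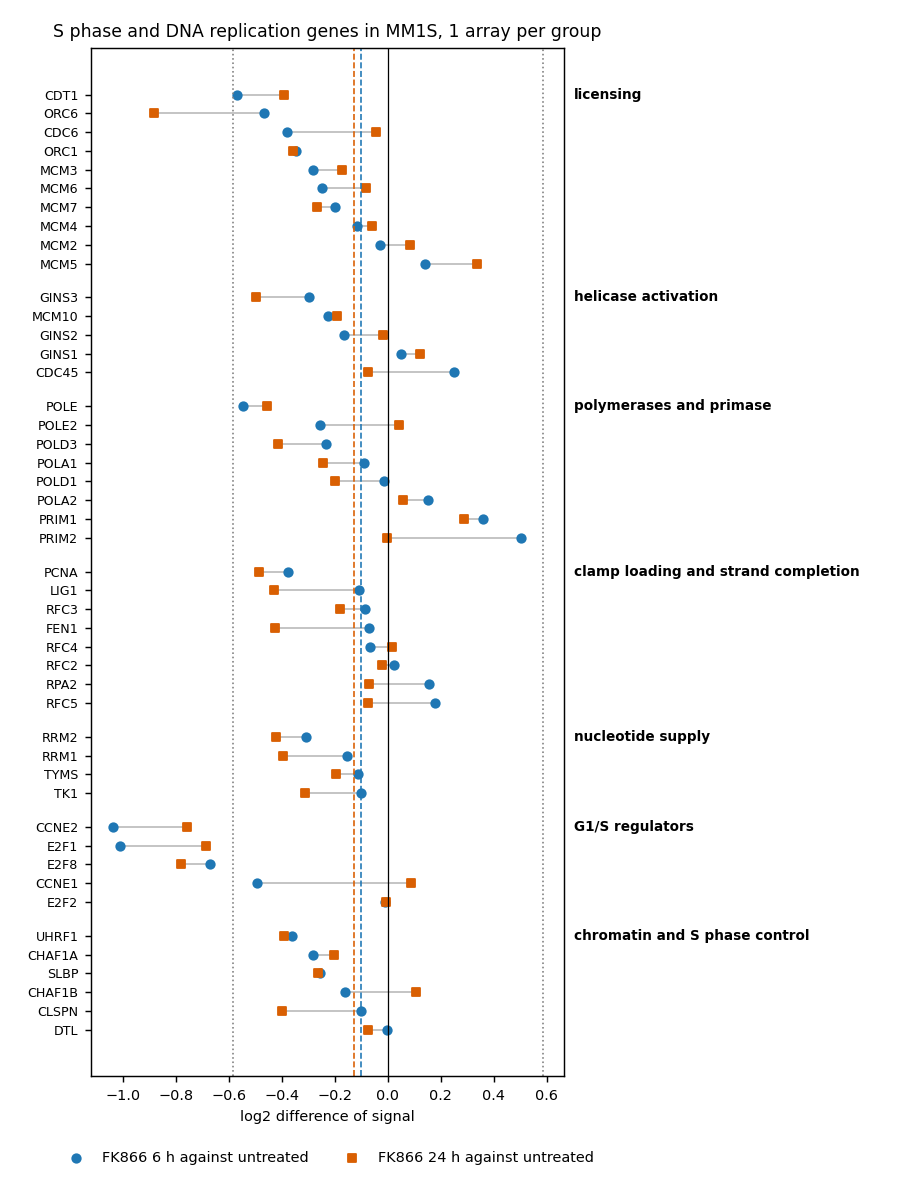
Log2 difference of signal from untreated cells for each of the 46 genes, grouped by role, at 6 h (blue circles) and 24 h (orange squares) of FK866, 1 array per group. Dotted lines mark 1.5-fold and dashed lines the median of all 11330 genes at each time. CCNE2, E2F1 and E2F8 lie beyond the lower dotted line at both times and ORC6 at 24 h.

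Most of the member promoters examined hold a motif of E2F type. As most of these genes are known to be controlled by E2F factors, this describes the list and is no independent result. RefSeq promoter windows (GRCh38.p14, 250 bases before to 50 after the start) were given for 40 of the 46 symbols. CCNE2, E2F8, MCM4, MCM5, POLD3 and RPA2 had none. Of these 40 genes, 32 (80.0%) held an E2F-type motif, that is the letters TTCCCGC, the variant TTCGCGC, the variant TTGGCGC or the variant TTGCCGC on either strand, against 20.5% of 15843 protein-coding genes. The CCAAT motif of the factor NF-Y was in 57.5% of the 40 genes, against 42.1% of protein-coding genes. The variant TTGGCGC, after an A, overlaps a CCAAT on the other strand. The CHR-type motif (TTTGAA or TTCGAA, either strand), an element known from genes of late cell cycle stages, was in 5.0% of the 40 genes, against 17.5% of protein-coding genes. Of 36 genes of G2 and mitosis with a window, 77.8% held the CHR-type and 33.3% the E2F-type motif. A match is a description of the letters, not evidence of a bound site.

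Promoter stretches of 200 bases up to the start are shown for E2F1, ORC6, CDT1 and MCM3. E2F1 and ORC6 are 2 of the 4 members at least 1.5-fold lower. CDT1 is the licensing gene with the largest difference at 6 h, at -0.57. MCM3, a helicase subunit, was at -0.28 at 6 h. The stretch of ASPM, the third highest gene of the G2 and mitosis list at 6 h, stands beside these 4 for contrast. They are written 5′ to 3′ on the gene's strand. Capitals mark E2F-type motifs in the first 4 and the CHR-type motif in ASPM. E2F1 lies at chr20:33686386-33686585 on the minus strand, ORC6 at chr16:46689459-46689658 on the plus strand, CDT1 at chr16:88803589-88803788 on the plus strand, MCM3 at chr6:52284743-52284942 on the minus strand and ASPM at chr1:197146670-197146869 on the minus strand.
E2F1: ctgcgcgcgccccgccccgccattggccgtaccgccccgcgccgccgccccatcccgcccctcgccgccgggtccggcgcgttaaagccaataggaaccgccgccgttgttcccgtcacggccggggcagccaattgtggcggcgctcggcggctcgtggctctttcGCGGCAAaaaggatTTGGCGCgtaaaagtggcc
CDT1: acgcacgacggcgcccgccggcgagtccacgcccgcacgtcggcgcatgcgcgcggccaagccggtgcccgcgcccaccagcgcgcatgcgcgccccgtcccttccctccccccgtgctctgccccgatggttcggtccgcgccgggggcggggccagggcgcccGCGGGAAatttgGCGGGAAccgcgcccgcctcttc
MCM3: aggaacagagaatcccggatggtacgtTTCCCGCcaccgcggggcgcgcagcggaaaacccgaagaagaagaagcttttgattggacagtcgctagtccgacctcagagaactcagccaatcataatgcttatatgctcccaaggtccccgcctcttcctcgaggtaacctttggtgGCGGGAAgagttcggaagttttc
ORC6: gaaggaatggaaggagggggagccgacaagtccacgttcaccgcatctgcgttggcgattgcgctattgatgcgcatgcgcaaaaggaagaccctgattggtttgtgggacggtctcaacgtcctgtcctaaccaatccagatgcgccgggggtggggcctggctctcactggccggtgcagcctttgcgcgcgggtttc
ASPM: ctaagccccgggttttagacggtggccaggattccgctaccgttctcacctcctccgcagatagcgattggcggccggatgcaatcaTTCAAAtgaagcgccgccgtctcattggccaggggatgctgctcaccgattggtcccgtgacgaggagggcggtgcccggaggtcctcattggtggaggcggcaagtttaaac

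E2F1 and CDT1 each carried 2 E2F-type motifs close together, starting 33 and 19 bases before the E2F1 start and 35 and 23 bases before the CDT1 start. In MCM3 the 2 motifs of this stretch began 173 and 23 bases before the start. ORC6 had 0 E2F-type motifs and 2 CCAAT motifs in its stretch, and ASPM had 1 CHR-type motif, 113 bases before its start, and 4 CCAAT motifs. The 32 genes with an E2F-type motif had medians of -0.16 (6 h) and -0.19 (24 h), and the 8 without had -0.15 and -0.20. Between the treated arrays, 24 h against 6 h, the medians were -0.04 with the motif and -0.25 without it. The 32 with it ran from -0.32 to 0.33 and the 8 without it from -0.51 to 0.58, and a link to the motif was not tested. Those 8 were CCNE1, CDC45, FEN1, MCM10, ORC6, POLD1, PRIM2 and SLBP.

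**Figure D2:**
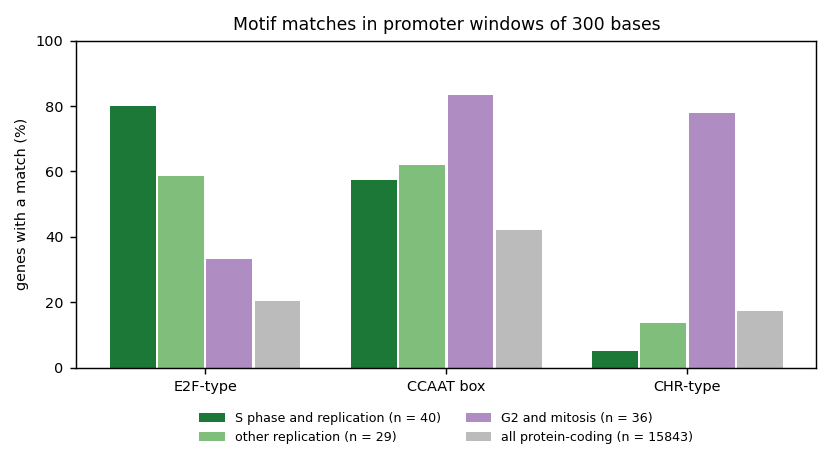
Share of genes with at least 1 match to each motif in RefSeq promoter windows of 300 bases, for the 40 S phase and replication genes, 29 other replication genes, 36 genes of G2 and mitosis and 15843 protein-coding genes with a window. The E2F-type share is 80.0% in the S phase and replication genes and the CHR-type share 77.8% in the genes of G2 and mitosis.

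The G1/S regulators, the E2F and cyclin E genes of the list, held 3 of the 4 members past 1.5-fold at either time. E2F1, an activating E2F factor, had signals of 154, 76.2 and 95.6 at 0 h, 6 h and 24 h by its brighter probe set. Relative to untreated cells it was lower 2.02-fold at 6 h and 1.61-fold at 24 h. The second E2F1 probe set gave 107, 83.9 and 71.8 with log2 differences of -0.35 at 6 h and -0.58 at 24 h. Both probe sets were therefore lower at both times, but they placed the lowest array differently, at 6 h in one and at 24 h in the other.

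CCNE2 encodes cyclin E2, which activates CDK2 at the start of S phase. Its signals were 587, 286 and 347 at 0 h, 6 h and 24 h, lower 2.05-fold at 6 h and 1.69-fold at 24 h than in untreated cells. A second CCNE2 probe set did not share this course, with 82.1, 82.8 and 78.2. CCNE1, which encodes cyclin E1, had a single kept probe set with 738, 524 and 784. It was 1.41-fold lower at 6 h, at -0.49 on the log2 scale, and at 24 h it lay 0.09 above the untreated level. The 24 h over 6 h difference of CCNE1, 0.58, was the highest of any member and lay just inside 1.5-fold.

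E2F8, a repressive E2F factor that is itself an E2F target, had 1629, 1024 and 948 by its only probe set. It was lower 1.59-fold at 6 h and 1.72-fold at 24 h than in untreated cells. E2F2, another activating E2F factor, had 1136, 1127 and 1131 by its brightest probe set and differed by -0.01 at both times. Its 3 probe sets ran from -0.10 to 0.26 at 6 h and from -0.40 to -0.01 at 24 h. The 5 regulators had a median of -0.67 at 6 h and -0.68 at 24 h, the lowest medians of any role, and 5 of 5 were negative at 6 h.

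**Figure D3:**
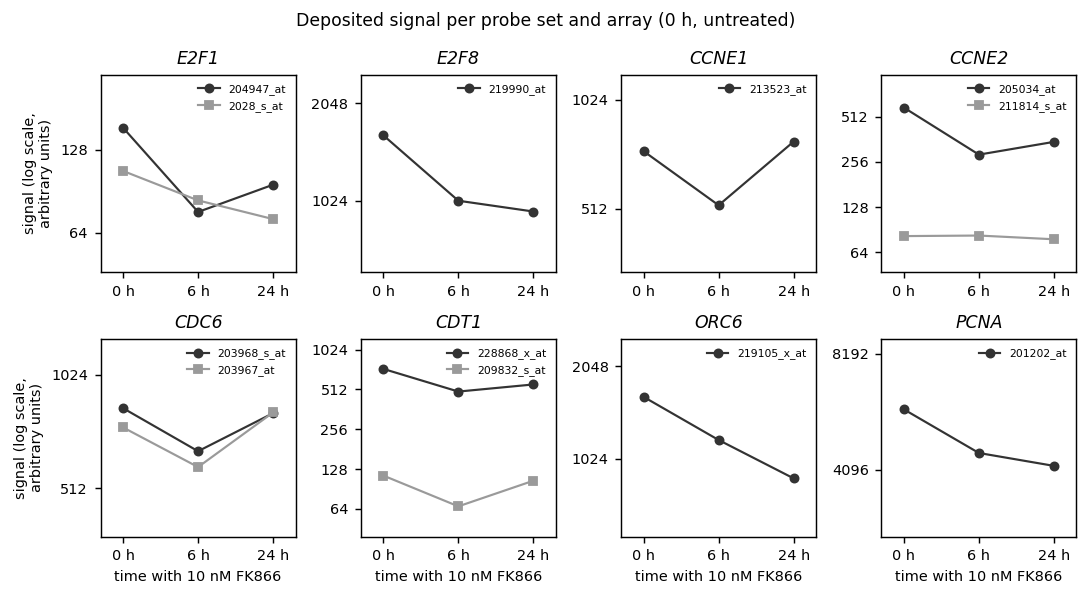
Deposited signal (log axis, arbitrary units) of each kept probe set of E2F1, E2F8, CCNE1, CCNE2, CDC6, CDT1, ORC6 and PCNA at 0 h (untreated), 6 h and 24 h of 10 nM FK866, 1 array per time. Black lines are the probe set that gives the gene its value and grey lines the other one. CCNE1, CDC6 and CDT1 have their lowest signal at 6 h, while ORC6, E2F8 and PCNA are lowest at 24 h.

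Genes of origin licensing were mostly a little lower at 6 h, and 5 of 10 (CDC6, CDT1, MCM3, MCM4 and MCM6) were nearer to their untreated level at 24 h. Their median was -0.27 at 6 h, where 8 of 10 lay under the all-gene median, and -0.13 at 24 h, where 5 of 10 did. CDT1, the loading factor that is destroyed once S phase begins, had 731, 493 and 558 at 0 h, 6 h and 24 h and was 1.48-fold lower at 6 h, just inside 1.5-fold. Its second probe set gave 114, 67.0 and 104.6, a difference of -0.77 at 6 h and -0.13 at 24 h. CDC6, the ATPase that loads MCM2-7 together with CDT1, had 834, 642 and 809, lower 1.30-fold at 6 h and 1.03-fold at 24 h. Both CDC6 probe sets were lower at 6 h, at -0.38 and -0.35, and at 24 h they lay at -0.04 and 0.13. For CDC6 and CDT1, the lowest of the 3 arrays was thus the 6 h one in every kept probe set.

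The 2 listed subunits of the origin recognition complex were lower at both times. By their brightest probe sets ORC2, ORC3, ORC4 and ORC5, outside the list, were higher at both. The second ORC2 probe set was at -0.10 at 24 h, and the lowest of 3 ORC5 probe sets was at -0.30 at 6 h and -0.10 at 24 h. ORC6 had 1629, 1179 and 884 at 0 h, 6 h and 24 h, lower 1.38-fold at 6 h and 1.84-fold at 24 h than in untreated cells. Its only probe set, like the brighter one of CDT1, is of a type that may cross-hybridise. ORC1, the subunit whose level varies through the cell cycle, had 321, 252 and 250.4, lower 1.27-fold at 6 h and 1.28-fold at 24 h.

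The MCM helicase subunits differed from untreated cells by at most 1.26-fold by their brightest probe sets. MCM2 had 2705, 2654 and 2864 at 0 h, 6 h and 24 h, and MCM3 had 2682, 2205 and 2380.0. MCM5 was the only licensing gene above the untreated level at both times, with 1241, 1369 and 1570 (0.14 at 6 h and 0.34 at 24 h) by its brighter probe set. Its second probe set was at -0.12 and 0.17. MCM6 (-0.25 at 6 h and -0.08 at 24 h), MCM7 (-0.20 and -0.27) and MCM4 (-0.11 and -0.06) differed by less. The second MCM6 probe set was at -0.35 and -0.64.

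The factors that switch the helicase on showed no common direction. Their median was -0.16 at 6 h and -0.07 at 24 h, and 3 of 5 genes at 6 h and 2 of 5 at 24 h lay under the all-gene median. GINS3, a GINS subunit, had 517, 421 and 366 at 0 h, 6 h and 24 h, lower 1.23-fold at 6 h and 1.41-fold at 24 h, with both its probe sets negative at each time. CDC45, which binds MCM2-7 and GINS to form the active helicase, had 493, 586 and 468, 1.19-fold higher at 6 h and 1.05-fold lower at 24 h. GINS1 had 2105, 2177 and 2290 and was the highest of these genes at 24 h, at 0.12. GINS2 (-0.16 at 6 h and -0.02 at 24 h) and MCM10, which helps CDC45 and the polymerases to bind (-0.22 and -0.19), lay between.

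Among the polymerase genes, both primase subunits and POLA2 were above their untreated level at 6 h and the other 5 genes below it. PRIM1 is the catalytic subunit of primase, which makes the RNA primers, and had 641, 821 and 783 at 0 h, 6 h and 24 h, higher 1.28-fold at 6 h and 1.22-fold at 24 h. PRIM2, the large primase subunit, had 148, 210.2 and 148, 1.42-fold higher at 6 h and at the untreated level at 24 h. Each has a single kept probe set. POLE, the catalytic subunit of the leading strand polymerase epsilon, had 97.9, 67.1 and 71.4, lower 1.46-fold at 6 h and 1.37-fold at 24 h. Its log2 signal averaged 6.28, so it is among the 5 dim members, with E2F1, PRIM2, POLE2 and CLSPN.

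POLE2, the second epsilon subunit, had 251, 211 and 259 at 0 h, 6 h and 24 h and so was lowest at 6 h. POLD3, a subunit of the lagging strand polymerase delta, was at -0.23 at 6 h and -0.41 at 24 h, but its second probe set lay at 0.01 at 24 h. POLD1, the catalytic delta subunit (-0.01 and -0.20), and POLA1, the catalytic subunit of polymerase alpha (-0.09 and -0.24), were close to untreated at 6 h and somewhat lower at 24 h. POLA2, the regulatory alpha subunit, was at 0.15 and 0.06, with its 3 probe sets between -0.79 and 0.19 at 6 h. The 8 genes had medians of -0.05 at 6 h and -0.10 at 24 h, above those of all genes.

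The clamp, its loader and the enzymes that finish the new strands had medians near those of all genes at both times. Their median was -0.07 at 6 h and -0.13 at 24 h, beside -0.10 and -0.13 over all genes. Under the all-gene median lay 2 of 8 at 6 h and 4 of 8 at 24 h. By the probe sets used, 7 of 8 were lower at 24 h than at 6 h. Further probe sets of FEN1 (0.15), RFC2 (0.11) and RFC5 (0.34) were higher, and those of RFC3 (-0.31) and RFC5 (-0.07) lower. PCNA, the sliding clamp, had 5875, 4528 and 4192 at 0 h, 6 h and 24 h and was the lowest of the 8 at both times, 1.30-fold and 1.40-fold lower. LIG1, which joins Okazaki fragments, had 478, 443 and 355, lower 1.08-fold at 6 h and 1.35-fold at 24 h. FEN1, the nuclease that trims them, had 6776, 6459 and 5051, lower 1.05-fold at 6 h and 1.34-fold at 24 h. The second FEN1 probe set was at 0.00 at 24 h.

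The clamp loader subunits RFC2 (0.03 at 6 h and -0.02 at 24 h), RFC3 (-0.09 and -0.18) and RFC4 (-0.07 and 0.02) differed little. RFC4 had 3139, 2995 and 3174 at 0 h, 6 h and 24 h and was the highest of the 8 genes at 24 h. RFC5, a further loader subunit, had 549, 622 and 521 and was the highest at 6 h, at 0.18, although its 3 probe sets ran from -0.40 to 0.18. RPA2, a subunit of the single-strand binding protein RPA, was at 0.16 and -0.07.

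As deposited and by the probe sets used, the enzymes of deoxynucleotide supply were lower at both times in 4 of 4 genes. All 4 were also lower at 24 h than at 6 h. Of all 11330 genes, 7182 were lower at 6 h and 7427 at 24 h. RRM2, the S phase subunit of ribonucleotide reductase, had 13466, 10881 and 10047 at 0 h, 6 h and 24 h, lower 1.24-fold at 6 h and 1.34-fold at 24 h. RRM1, the large subunit, was lower 1.11-fold at 6 h and 1.31-fold at 24 h, with 5268, 4739 and 4008. TYMS, thymidylate synthase, had 10032, 9280.3 and 8753, 1.08-fold and 1.15-fold lower. TK1, the thymidine kinase of the salvage pathway, had 809, 754 and 652, 1.07-fold and 1.24-fold lower. Both kept probe sets of each of these genes were negative at both times, but the second TK1 probe set was not lower at 24 h than at 6 h (0.02). With the arrays centred on their medians, TYMS was at 0.12 at 6 h and 0.05 at 24 h. By that scaling TK1 was at 0.13 and -0.07, and RRM2 at -0.08 and -0.18. The group medians were -0.13 at 6 h, near that of all genes, and -0.35 at 24 h.

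Genes of chromatin copying and S phase control were at or below their untreated level at 6 h in 6 of 6 cases, with a median of -0.21, and had a median of -0.23 at 24 h. UHRF1, which guides maintenance DNA methylation at the fork, had 3085, 2403 and 2353 at 0 h, 6 h and 24 h, lower 1.28-fold at 6 h and 1.31-fold at 24 h. CHAF1A, the large subunit of the histone chaperone CAF-1, had 982, 808 and 854, and its 3 probe sets lay between -0.66 and -0.28 at 6 h and between -0.48 and -0.20 at 24 h. CHAF1B, another CAF-1 subunit, had 314, 280.2 and 338 and was the only gene of this role above untreated at 24 h, at 0.11. SLBP, which binds the stem loop of histone mRNAs, had a difference of -0.26 at both times (6529, 5467 and 5444).

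DTL, the adaptor that targets CDT1 for destruction during S phase, had 3680, 3676 and 3494 at 0 h, 6 h and 24 h by its brighter probe set. By that probe set it was at its untreated level at 6 h (1.00-fold), with a log2 difference of -0.07 at 24 h. The second DTL probe set had 1593, 1324 and 1360, with differences of -0.27 at 6 h and -0.23 at 24 h. CLSPN encodes claspin, which passes the replication stress signal to CHK1. It had 199, 186 and 151 and was lower 1.07-fold at 6 h and 1.32-fold at 24 h. Its 4 probe sets disagreed, between -0.80 and 0.57 at 6 h and between -0.80 and 0.67 at 24 h, so its direction depends on the probe set.

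Between the treated arrays, 24 h against 6 h, no member differed by 1.5-fold. The background was 7.5% of all genes lower and 4.69% higher at 1.5-fold, 1.82% lower and 1.05% higher at 2-fold, and without the dim genes 2.44% lower and 1.05% higher at 1.5-fold. The members' median was -0.06, beside -0.04 over all genes. By the probe sets used, the roles differed in direction here. Licensing genes had a median of 0.11, with 7 of 10 higher at 24 h, and the G1/S regulators one of 0.28, with 4 of 5 higher. Nucleotide supply was at -0.16 with 0 of 4 higher, clamp loading and strand completion at -0.17 with 1 of 8 higher, and polymerases and primase at -0.12 with 2 of 8 higher. Of the 25 members with several kept probe sets, only 9 had all of them of 1 sign in this comparison. Among the G1/S regulators, E2F2 was at 0.01 with its other probe sets at -0.21 and -0.66. The second probe sets of E2F1 (-0.22) and CCNE2 (-0.08) were lower at 24 h. CCNE1 (0.58) and CDC6 (0.33) were highest and PRIM2 (-0.51) and ORC6 (-0.41) lowest.

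The 3 arrays were also ordered by sign alone, however small the difference, in the probe set used for each gene. The share of all genes in each course is not given here, but most were lower than untreated. As deposited, 7182 of 11330 genes were negative at 6 h and 7427 at 24 h, beside 37 of 46 members at each time. By this order 20 of 46 members were lower at 6 h and lower still at 24 h, among them ORC6, PCNA, GINS3 and the 4 genes of nucleotide supply. Another 12 were lower at 6 h and lay between at 24 h, among them E2F1, CCNE2, CDC6, CDT1, MCM3, MCM4 and MCM6. In 5 (CCNE1, CHAF1B, MCM2, POLE2 and RFC4) the 24 h signal was at or above untreated after a lower one at 6 h. CDC45, PRIM2, RFC2, RFC5 and RPA2 were not lower at 6 h but lower at 24 h, and GINS1, MCM5, POLA2 and PRIM1 were lower at neither time. Of these, PRIM2 (-0.003) and RFC2 (-0.02) were in effect at the untreated level at 24 h. The second RFC2 probe set had the reverse signs (-0.09 and 0.02), and 2 of 3 RFC5 probe sets were lower at 6 h.

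The spread between probe sets of a gene is the only measure of error at hand, and it holds differences between probes and transcripts but none between cultures. Over the 25 members with several kept probe sets, the log2 differences had a pooled SD of 0.32 at 6 h, 0.27 at 24 h and 0.24 between the treated arrays, beside 0.37, 0.37 and 0.34 over all 5709 genes with several. Of these 25 members, 15 had all probe sets negative at 6 h and 15 at 24 h, and all probe sets were positive in 0 at 6 h and in 1, MCM5, at 24 h. The other 21 members have a single kept probe set.

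Of 37 further replication genes, 36 were measured, with medians of -0.09 at 6 h and -0.18 at 24 h. Under the all-gene median lay 16 of 36 at 6 h and 23 of 36 at 24 h. At 6 h 1 was at least 1.5-fold lower, POLD2, the second subunit of polymerase delta (431, 264 and 394 at 0 h, 6 h and 24 h), and 1 higher, the origin recognition subunit ORC2 (249, 380 and 370; 1.52-fold). CHTF18 and RFC1, both of clamp loading complexes, were the next lowest at 6 h, at -0.44 and -0.37, and DSCC1 and WDHD1 the next highest, at 0.49 and 0.40. At 24 h RECQL4, a helicase that helps replication to start, was 1.92-fold lower, CHTF18 1.72-fold and DBF4, which activates the CDC7 kinase, 1.58-fold lower. DSCC1, a partner of CHTF18, was 1.59-fold higher at 24 h, ORC2 1.48-fold and ORC5 1.33-fold higher. The second RECQL4 probe set was at -0.13 at 24 h.

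A list of G1/S control genes, which holds D-type cyclins, their kinases and inhibitors, and further E2F factors, had medians of -0.24 at 6 h and -0.16 at 24 h over 19 of 20 listed genes. CCND1, CCND2 and CDK6 were the lowest at 6 h, while CCND3, the remaining D-type cyclin, had 429, 427 and 442 at 0 h, 6 h and 24 h. CCND2, encoding cyclin D2, had 10658, 6655 and 8272 at 0 h, 6 h and 24 h, 1.60-fold lower at 6 h, with 4 of 4 probe sets negative. CDK6 had 2819, 1834 and 2365, 1.54-fold lower at 6 h with 6 of 6 probe sets negative, and CCND1 had 93.2, 50.8 and 101, 1.83-fold lower at 6 h. At 24 h CDKN1B, the inhibitor p27, was the only one past 1.5-fold, at 1.56-fold lower, followed by E2F4 (-0.51) and E2F7 (-0.45). The second E2F4 probe set was higher at both times, at 0.34 at 6 h and 0.31 at 24 h, so the direction of E2F4 depends on the probe set. The highest were E2F5 (0.40 at 6 h and 0.44 at 24 h), SKP2 (0.13) and CDC25A (0.10) at 6 h, and CCND1 (0.11) and CDC25A (0.07) at 24 h.

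Genes of G2 and mitosis, the next stages of the cycle, followed another course. At 6 h the S phase and replication genes had a median of -0.16 with 9 of 46 positive, against 0.28 with 37 of 43 positive for the genes of G2 and mitosis. Of these 43 genes, 9 were at least 1.5-fold higher and 0 lower. CENPE, CDC25C and ASPM were 2.23-fold, 1.89-fold and 1.71-fold higher, and CCNA2 (-0.38), KIF2C (-0.37) and MAD2L1 (-0.12) lowest. At 24 h the medians were -0.19 for the S phase and replication genes and -0.17 for those of G2 and mitosis, with ANLN, KIF2C and CENPA 1.75-fold, 1.67-fold and 1.53-fold lower and CENPE (0.43), ECT2 (0.31) and BUB1 (0.26) highest. Between the treated arrays the S phase and replication genes were at -0.06, with 27 of 46 lower at 24 h, against -0.45 and 42 of 43 for the genes of G2 and mitosis.

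**Figure D4:**
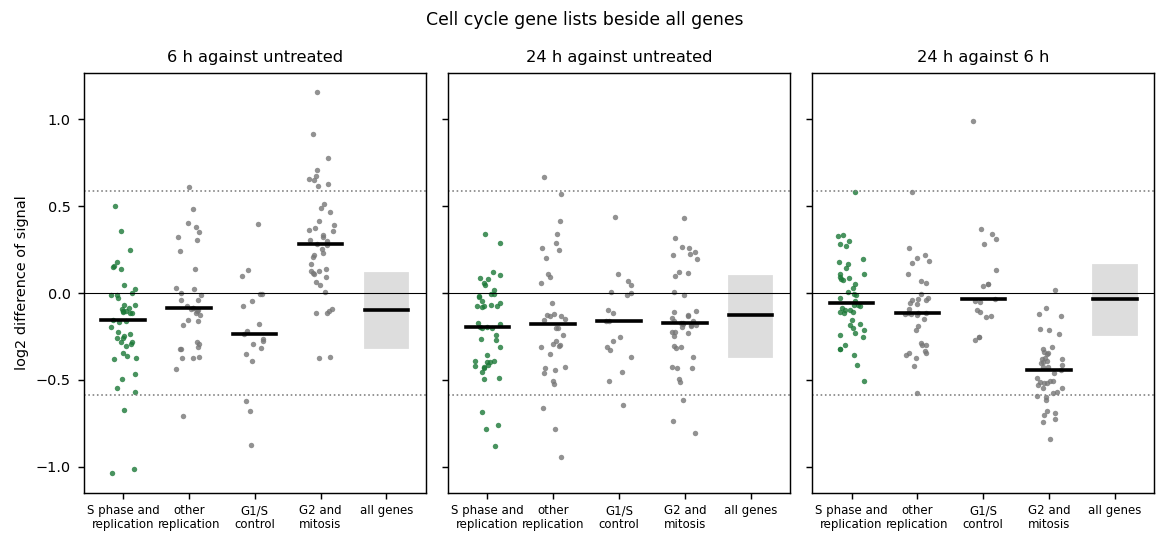
Log2 difference of signal of each gene (points) and list medians (bars) for the S phase and replication genes (green), the other lists (grey) and all 11330 genes (box between the quartiles), in the 3 comparisons, 1 array per group. Dotted lines mark 1.5-fold. The median of the S phase and replication genes lies inside the box in each comparison, and that of the genes of G2 and mitosis lies above it at 6 h and below it at 24 h against 6 h.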

How the data were processed

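Total RNA was labelled with biotin by Affymetrix's standard procedure, per the labels' protocols. The deposited table gives 1 linear intensity for each of 54675 probe sets on 3 arrays. How the authors summarised, background-corrected and scaled these values was not given in the sources used here. Array medians were 20.4, 17.4 and 17.2 at 0 h, 6 h and 24 h, and the number of arrays limits the precision. The platform annotation of 2016 gave 1 symbol for 41097 probe sets, and 4 probe sets naming a member beside other genes were not used.

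Signals below 16 were set to 16 and log2 taken. With 1 array per group, genes were described by size (1.5-fold, with 2-fold beside it). Every member is named. Signals on all arrays were to be printed for members past 1.5-fold, for the ends of each role group and for 9 preset genes, and of the other lists the 3 highest and 3 lowest genes at each time. Further members' signals were chosen after their values were seen, as were the promoters shown. The members and lists were chosen with earlier results of these data known. The procedure was tested on simulated data. Alternatives covered scaling, filter, floor, gene value, probe set type and size, and a limit on dim genes (log2 signal averaging 8 or more) came after the data were seen. The work used Python 3.11.15, numpy 2.4.6, pandas 2.3.3 and matplotlib 3.10.9.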

Additional observations from a re-analysis of the deposited data

How the results depend on the processing

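No paired analysis was possible because each group has 1 array, so leaving out replicates could not be tried either. Scaling decided the sign of small differences. Quantile normalization put the median of all genes at 0.03 at 6 h and 0.05 at 24 h, and centring on array medians at 0.13 and 0.12, beside -0.10 and -0.13 as deposited. The members' median was -0.044, -0.027 and -0.0063 (6 h, 24 h and 24 h against 6 h) after quantile normalization, and 0.072 at 6 h and 0.051 at 24 h after centring. Relative to all genes it lay at -0.06 at 6 h and -0.07 at 24 h as deposited, and at -0.08 and -0.08 after quantile normalization. Centring moves all genes of an array alike, so it cannot change this gap and is no check on it. Without probe sets ending in _s_at or _x_at the gap was 0.0004 at 6 h and -0.035 at 24 h. The share of higher genes among all genes past 1.5-fold was 33.9% at 6 h and 25.5% at 24 h as deposited, 58.7% and 55.9% after quantile normalization and 68.6% and 62.2% after centring.

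Members at least 1.5-fold higher numbered 1 at 6 h and 1 at 24 h against 6 h after quantile normalization, and 2 and 1 after centring, each 0 as deposited. Members at least 1.5-fold lower at 24 h numbered 1 after centring and 0 at 2-fold. The share of all genes past 1.5-fold after quantile normalization or centring is not given here. The member counts after these scalings therefore have no background beside them. Without probe sets ending in _s_at or _x_at, 35 members were left, whose median of -0.11 at 6 h equalled that of all genes (-0.11), and ORC6 had no value. With the mean over probe sets the median at 24 h against 6 h was -0.020. The mean over probe sets also put CCNE2 at -0.51 at 6 h and -0.41 at 24 h, no longer past 1.5-fold. E2F8 was not past 1.5-fold at 6 h after quantile normalization (-0.53) or at either time after centring (-0.44 and -0.54). At 24 h E2F1 was not past it by either scaling (-0.49 and -0.44), nor CCNE2 after centring (-0.51). In 0 of these cases did a member past 1.5-fold change sign. The cause was not tested.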
